A study of Coturnix japonica with 20 samples.

Results

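The liver response of male Japanese quail (Coturnix japonica) embryos to ethinylestradiol (EE2), a synthetic estrogen, was described across all genes from 9 of the 20 libraries of the study. The members were chosen by their labels, and were 4 libraries from male embryos given EE2 (replicates 3, 4, 5 and 6) and 5 from male embryos given the solvent dimethyl sulfoxide (DMSO; replicates 1, 2, 4, 7 and 8). Each egg received 10 µl in its air cell before incubation, as DMSO alone or as EE2 at 3.33 µg per g of egg, and was kept at 37 °C and 60% humidity. RNA came from whole tissue of the left liver lobe at embryonic day 9, so fewer cells of a type and less RNA per cell cannot be told apart. The 11 female libraries (5 solvent, 6 EE2, same age and handling) served for comparison.

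In egg-laying vertebrates, estrogen circulates from the ovary to the liver, binds estrogen receptors there, and switches on genes for the proteins and lipids that are carried in blood to the growing egg yolk. Males carry the same receptors and genes, and yolk precursors in a male animal are a standard sign of exposure to estrogenic chemicals. Yolk precursors are secreted, so their synthesis draws on the endoplasmic reticulum, on the vesicle transport that follows it and on lipid synthesis.

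The 9 male libraries held 26776988 to 32119466 estimated counts. The tissue label was checked with 9 hepatocyte markers, each at 27.9 CPM (counts scaled to library size) or more in every male library. The sex label was checked with genes of the Z chromosome, of which male birds carry a pair. Relative to the solvent males, 532 Z genes had a median log2 difference between -0.025 and 0.054 in each male library. In each female library the median lay between -0.46 and -0.36. EE2 male replicate 3 stood apart from the other EE2 males and is given separately throughout. Per-library values below are CPM in the order of replicates 1, 2, 4, 7 and 8 for solvent males and 3, 4, 5 and 6 for EE2 males. CPM is not corrected for gene length, so levels were compared between libraries and not between genes.

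Transcripts of several egg coat and yolk precursors, a fatty acid elongase, a vitamin B12 carrier and a set of unnamed loci were higher in EE2 males by up to 15.96 on the log2 scale, and those of several fatty acid oxidation genes, the fibrinogen chains and several apolipoproteins were lower. Of 13501 genes tested, 302 (2.24%) were higher and 139 (1.03%) lower at an adjusted p under 0.05 (edgeR quasi-likelihood test, two-sided). The rises were larger than the falls. The median log2 fold change was 1.11 among the higher genes and -0.71 among the lower genes, against -0.01 over all genes tested. At least a 4-fold change was seen in 94 of the higher and 11 of the lower genes, and 26 rose at least 32-fold. Of the genes called higher, 79 averaged under 1 CPM in the solvent males. In 230 of the 302 higher genes all 4 EE2 males lay above all 5 solvent males, an arrangement seen in 3.35% of all genes tested, and in 113 of the 139 lower genes all 4 lay below, as in 2.59% of all genes.

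The counts depended on single libraries. Without EE2 male replicate 5 they fell to 181 higher and 53 lower genes, and without EE2 male replicate 4 to 187 and 67. Without replicate 6 they were 220 and 81, and without replicate 3 they rose to 390 and 257. Of the genes named here by the rule given with the processing, 114 passed the test, and 59 of these passed whichever male library was left out. These counts do not cover genes named after their values were seen. In a fit of the male libraries alone 50 of the 114 calls were lost, and without EE2 males 4 and 5 together 74 were lost.

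Of the egg coat and yolk precursors, ZPD, ZP1, APOB and RBP4 rose. ZPD (LOC107319112), which encodes a zona pellucida protein of the egg coat, was at 0, 0, 0.103, 0.15 and 0 CPM in the solvent males and at 220.1, 937, 481 and 319.6 CPM in the EE2 males. ZP1, another egg coat gene that birds express in the liver, was at 5.37, 16.1, 3.71, 5.89 and 1.39 CPM against 112, 234, 210.1 and 176 CPM. The groups did not overlap for either gene, which the rule for naming the largest rises required. The lowest EE2 value of both was that of replicate 3. The log2 fold change was 13.05 ± 0.85 (SE), adjusted p = 1.69e-08 for ZPD and 4.8 ± 0.49 (SE), adjusted p = 5.26e-06 for ZP1.

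APOB encodes the structural protein of yolk-directed lipoprotein. It was at 7095, 11890, 10960, 10700 and 12460 CPM in solvent males and at 38470, 38330, 36640 and 40560 CPM in EE2 males, so that replicate 3 did not stand apart from the other EE2 males here. The log2 fold change was 1.86 ± 0.16 (SE), adjusted p = 2.69e-07. RBP4, the plasma carrier of retinol, rose by 0.73 ± 0.15 (SE), adjusted p = 0.00683 on the log2 scale, with replicate 3 at 1986 CPM between the solvent males (1382 to 1713) and the other EE2 males (2586 to 3105). The list of egg yolk and egg coat precursors named 17 genes, of which 11 could be matched by symbol, and these were tested. Of the 11, the 4 genes above rose and 1 fell, with a list median of 0.71. Over all genes tested 2.24% were called higher and 1.03% lower, the shares to set beside each list count here and below. The gene that fell was FAM20C, a kinase of secreted proteins (-0.52 ± 0.11 (SE), adjusted p = 0.0106), which no longer passed when EE2 male replicate 5 was left out. The serum protein transcripts ALB and TF did not pass the test. ALB was at 76590 to 134300 CPM in solvent and 87280 to 150700 CPM in EE2 males.

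The largest rises belonged to loci without a gene name. LOC107319873 was at 0.439, 0.181, 0.172, 0.179 and 0.424 CPM in solvent males and at 4555, 25390, 21210 and 19090 CPM in EE2 males (15.96 ± 0.77 (SE), adjusted p = 1.79e-10). LOC107317565 was at 1.28, 1.75, 2.54, 1.82 and 1.66 against 10730, 42150, 35060 and 29980 CPM (13.98 ± 0.69 (SE), adjusted p = 1.79e-10), and its neighbour on chromosome 8, LOC107317352, at 0.913, 0.181, 0.24, 0.897 and 0.695 against 3484, 8450, 7424 and 8587 CPM (13.54 ± 0.93 (SE), adjusted p = 2.28e-08). In all 3 loci replicate 3 held the lowest EE2 value and was still far above every solvent male. LOC107314278 reached 343, 1506, 1316 and 1274 CPM from 0 to 0.151 CPM. LOC107310248 had 1 estimated count over all 5 solvent males and 8554 over the EE2 males, a ratio of 11300 with a 95% interval of 2020 to 445000 that covers counting error only. LOC107317574 varied widely among EE2 males, with 37.98, 4595, 314 and 1049 CPM against 0.483 to 0.721 CPM in solvent males. The deposited estimates may share reads among near-identical copies of a gene, which was not tested for these loci. LOC107311487, by contrast, was abundant in both groups and rose modestly, from 3644, 3276, 3474, 3602 and 3868 to 5964, 5913, 6106 and 5678 CPM (0.73 ± 0.1 (SE), adjusted p = 8.61e-05).

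**Figure D1:**
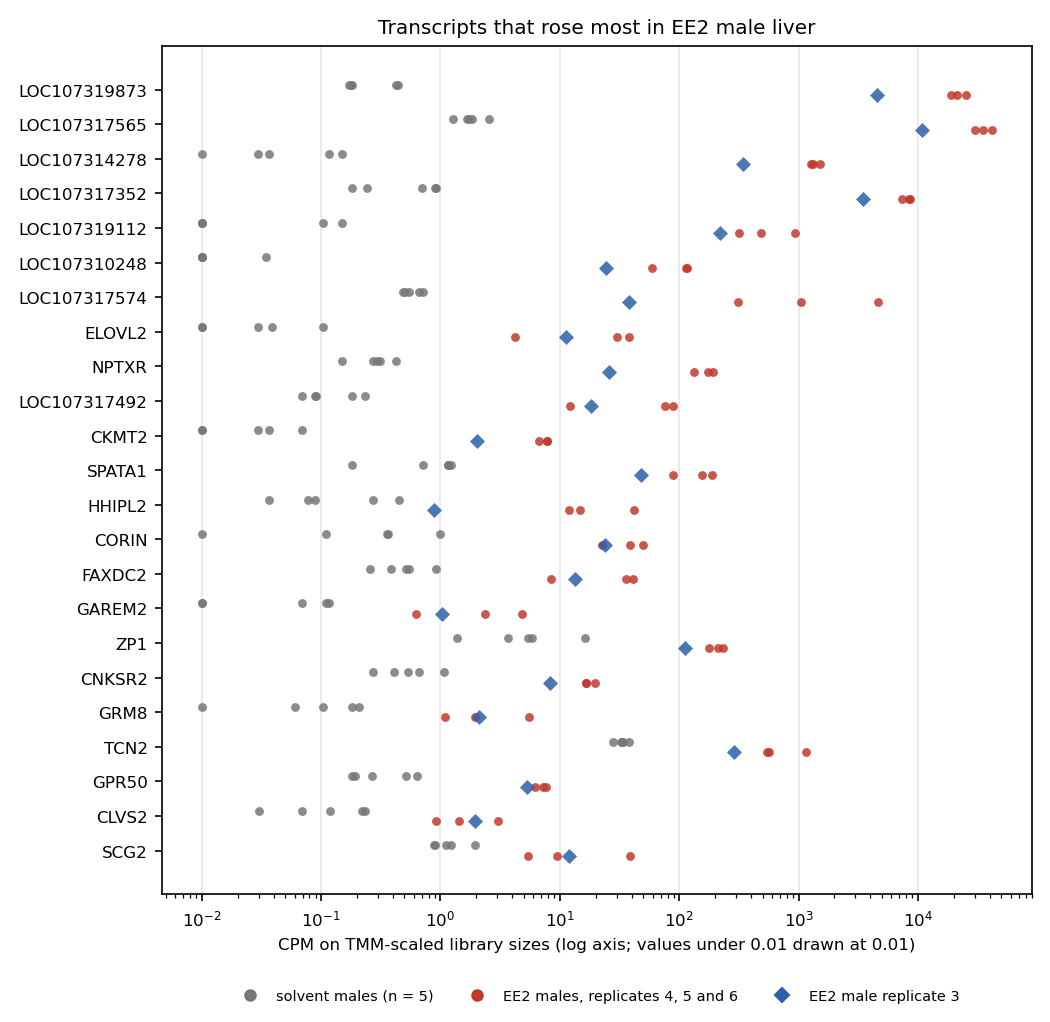
The 23 genes with the largest rises (15 with a gene name, 8 loci) are shown by CPM in each male library on a log axis, with solvent males in grey, EE2 males 4, 5 and 6 in red and EE2 male replicate 3 as a blue diamond. No EE2 male overlapped the solvent males in these genes, by the rule that chose them, and replicate 3 was often the lowest EE2 value, as for LOC107319873 and HHIPL2, but not for ELOVL2 or SCG2.

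Of 25 tested genes of fatty acid and triglyceride synthesis, 5 rose and none fell, with a median log2 fold change of 0.22. ELOVL2, an elongase of polyunsaturated fatty acids, went from 0, 0, 0.103, 0.0299 and 0.0386 CPM to 11.2, 4.25, 29.9 and 38.2 CPM (9.11 ± 1.27 (SE), adjusted p = 0.000233). Here the lowest EE2 male was replicate 4 and not replicate 3. ELOVL5, a related elongase, rose from 8.03 to 15.3 to 18.6 to 28.7 CPM (1.11 ± 0.2 (SE), adjusted p = 0.00376). AGPAT2, which makes phosphatidic acid, was at 22.3, 36.5, 23.6, 41.4 and 24.7 CPM in solvent males against 63.8, 133, 101 and 121 CPM in EE2 males (1.82 ± 0.2 (SE), adjusted p = 7.12e-06). LPIN1, which makes diacylglycerol, rose by 1.26 on the log2 scale, but replicate 3 (1.92 CPM) lay inside the solvent range (0.927 to 2.28 CPM). GPAM, the first enzyme of glycerolipid synthesis, rose by 0.44. The calls of LPIN1 and GPAM were each lost on leaving out several single libraries, and 3 of the 5 calls remained without EE2 male replicate 5 or without solvent male replicate 4.

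FAXDC2, a gene of the fatty acid hydroxylase family, rose from 0.256 to 0.926 to 13.3, 40.9, 35.6 and 8.39 CPM (5.55 ± 0.59 (SE), adjusted p = 9.43e-06). None of 23 tested phospholipid synthesis genes passed the test in either direction (edgeR; median 0.02). Of 29 cholesterol synthesis and uptake genes, SQLE (1.49) and EBP (0.6), both enzymes of the sterol pathway, rose, and each failed the test in 7 of the 9 cases of leaving out 1 male library, EE2 male replicates 4, 5 and 6 among them.

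Among 18 genes of lipid droplets and fatty acid carriers, 2 rose and 2 fell. FABP7, a fatty acid binding protein known from brain, rose from 27.7, 17.6, 17.9, 17.4 and 12.5 to 59.1, 121, 104 and 202 CPM (2.71 ± 0.44 (SE), adjusted p = 0.00123), with no overlap between groups. FABP2, the intestinal form, fell from 32.6, 18.1, 79.3, 2.33 and 33.04 to 2.38, 1.94, 0.772 and 2.05 CPM (-4.21 ± 0.94 (SE), adjusted p = 0.0169), and solvent male replicate 7 overlapped EE2 male replicate 3. FABP2 did not pass without EE2 male replicate 4, 5 or 6. CIDEC, a lipid droplet protein, had a log2 fold change of -1.26, and did not pass without any 1 of the same 3 libraries. Its call was also lost without solvent male replicate 2 or 4. FABP3, the heart and muscle form, was at 2.58, 7.13, 11.2 and 1.81 CPM against 0.347 to 1.72 CPM. Its high values came in EE2 males 4 and 5, which also held striated muscle transcripts. Without these 2 libraries its log2 fold change was 0.81 and did not pass. FABP3 in EE2 males 3 and 6 was still above every solvent male, and it was called higher in females as well (2.03, edgeR adjusted p = 0.0053). The part of muscle transcripts in its rise was not tested.

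Of 60 tested genes of secretory translocation and vesicle transport, 12 rose, none fell and 48 did not pass. The list median was 0.25 against -0.01 over all genes, of which 2.24% were called higher. The 12 were the translocon and signal peptidase components SEC61G, SPCS3, SSR1, SSR3 and TRAM1, the glycosyltransferase subunits OSTC and STT3A, the coat proteins SEC16A and SEC24D, and the cargo receptors LMAN1, TMED2 and TMED3. SSR3 was at 155, 112, 128, 139.9 and 166 CPM in solvent males and 180.2, 239.6, 203 and 229 CPM in EE2 males (0.6 ± 0.1 (SE), adjusted p = 0.00144). TMED3 was at 13.3, 14.3, 15.3, 12.8 and 12.3 against 18.7, 35.7, 28.4 and 23.1 CPM (0.96 ± 0.2 (SE), adjusted p = 0.0087). Both changes were under 2-fold, and neither gene's groups overlapped. SEC24D was at 57.7, 56.96, 65.6, 44.4 and 53.8 against 66.9, 85.2, 82.7 and 82.6 CPM, with replicate 3 well below the other 3 EE2 males. The number that rose was 5 without EE2 male replicate 4 or 6, and 16 without replicate 3 or solvent male replicate 8. It was 5 without the 3 libraries with high interferon-response transcripts described below, and 1 without EE2 males 4 and 5.

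Of 38 tested endoplasmic reticulum folding and stress genes, CRELD2 (0.77 ± 0.19 (SE), adjusted p = 0.0254) and DERL1 (0.34 ± 0.09 (SE), adjusted p = 0.0433) rose and none fell, with a list median of 0.33. Replicate 3 differed from the rest of the EE2 males in this list. HSPA5, the main folding chaperone of that compartment, was at 803, 685, 725, 748 and 857 CPM in solvent males, at 686 CPM in replicate 3 and at 1220, 1290 and 1241 CPM in the other EE2 males. The stress-response gene HERPUD1 was at 13.5 to 16.4, 12.7 and 24.5 to 27.7 CPM in the same order. Neither gene passed the test with all 4 EE2 males (adjusted p = 0.144 and 0.133). Without replicate 3, 6 genes of the list rose, and none did without any 1 of EE2 males 4, 5 and 6 and solvent males 2, 4 and 7.

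Of 31 tested genes of fatty acid oxidation, 6 fell, none rose and 25 did not pass. Of the 31, 28 had a negative log2 fold change, as did 6927 of all 13501 genes tested (51.3%), and the median was -0.27. Over all genes tested 1.03% were called lower. CPT1A, which admits fatty acids to mitochondria, was at 567, 853, 494, 652 and 628 CPM in solvent males and at 444, 299, 231 and 340.2 CPM in EE2 males (-0.96 ± 0.18 (SE), adjusted p = 0.00492). Replicate 3 lay below every solvent male and above the other EE2 males. Also among the 6 were the acyl-CoA synthetase ACSL1 (-0.75), and ECI2 (-1.0) and DECR1 (-0.38), which handle unsaturated fatty acids. The number that fell was 2 without EE2 male replicate 5, 8 without replicate 3, and 1 without EE2 males 4 and 5 together.

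Of 24 lipoprotein genes, APOB rose and 5 fell. APOA5, which promotes clearance of plasma triglyceride, was at 212, 548, 571, 222 and 387 CPM in solvent males and 82.8, 100.2, 57.7 and 49.99 CPM in EE2 males (-2.42 ± 0.35 (SE), adjusted p = 0.000315). APOA4, its chromosomal neighbour, was at 306, 592, 794, 233 and 935 against 93.6, 164, 215 and 86.1 CPM (-2.03 ± 0.44 (SE), adjusted p = 0.0138). The groups did not overlap for either gene, which the rule for naming the largest falls required. APOA4 did not pass without EE2 male replicate 6. APOA1, the main protein of high-density lipoprotein, was at 9184, 10060, 9134, 8515 and 8549 against 7208, 5203, 3372 and 3113 CPM (-0.94 ± 0.24 (SE), adjusted p = 0.0348), with replicate 3 nearest the solvent males. It passed with all libraries and without EE2 male replicate 3, but not without any other male library. ANGPTL4, a lipase inhibitor, fell as well (-0.99 ± 0.19 (SE), adjusted p = 0.00451). LCAT, which esterifies plasma cholesterol, changed by -0.9 ± 0.22 (SE), adjusted p = 0.0239, and replicate 3 (313 CPM) lay inside the solvent range (306 to 416 CPM). The number of lipoprotein genes that fell was 2 without EE2 male replicate 6 and 7 without replicate 3.

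Of 48 plasma protein, coagulation and complement genes, 4 fell and none rose. They were the 3 fibrinogen chains and SERPINF2, the plasmin inhibitor (-0.45). FGA was at 9307, 6040, 7184, 5362 and 5740 CPM in solvent males and 4261, 3987, 2584 and 3526 CPM in EE2 males (-0.91 ± 0.18 (SE), adjusted p = 0.00567), with every EE2 male below every solvent male. FGB changed by -0.88 and FGG by -0.89, and the 3 fibrinogen calls remained whichever male library was left out, while that of SERPINF2 was lost in 7 of 9 cases. None of the 4 calls remained without EE2 males 4 and 5 together, or in a fit of the male libraries alone. ORM2, which encodes an orosomucoid of blood plasma, had the largest fall among named genes, from 52.5, 40.3, 67.1, 23.8 and 8.34 to 1.42, 3.58, 1.47 and 0.819 CPM (-4.4 ± 1.03 (SE), adjusted p = 0.0222), and lost its call without EE2 male replicate 5 or 6.

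Several regulators and transporters fell as well. MYCL, a transcription factor of the MYC family, was at 9.57, 9.75, 15.8, 7.9 and 12.3 CPM in solvent males and 2.35, 3.51, 2.35 and 2.32 CPM in EE2 males (-2.07 ± 0.27 (SE), adjusted p = 8.99e-05). Its neighbour MFSD2A, a carrier of lysophosphatidylcholine with polyunsaturated fatty acids, was at 40.3, 53.1, 68.8, 41.1 and 61.3 against 24.02, 20.7, 18.9 and 15.8 CPM (-1.41 ± 0.17 (SE), adjusted p = 2.51e-05). Both separated the groups completely, which the rule for naming the largest falls required, and passed whichever male library was left out. The signalling ligand WNT2B (-1.61 ± 0.25 (SE), adjusted p = 0.000516) and the secreted phospholipase PLA2G3 (-1.82 ± 0.36 (SE), adjusted p = 0.00675) also passed in every such case. In a fit of the male libraries alone PLA2G3 did not pass. TSKU, a secreted protein of liver (-1.62), DDO, which oxidises D-aspartate (-1.81), and the channel gene CALHM1 (-3.77) each lost their call in 5 of 9 cases.

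**Figure D2:**
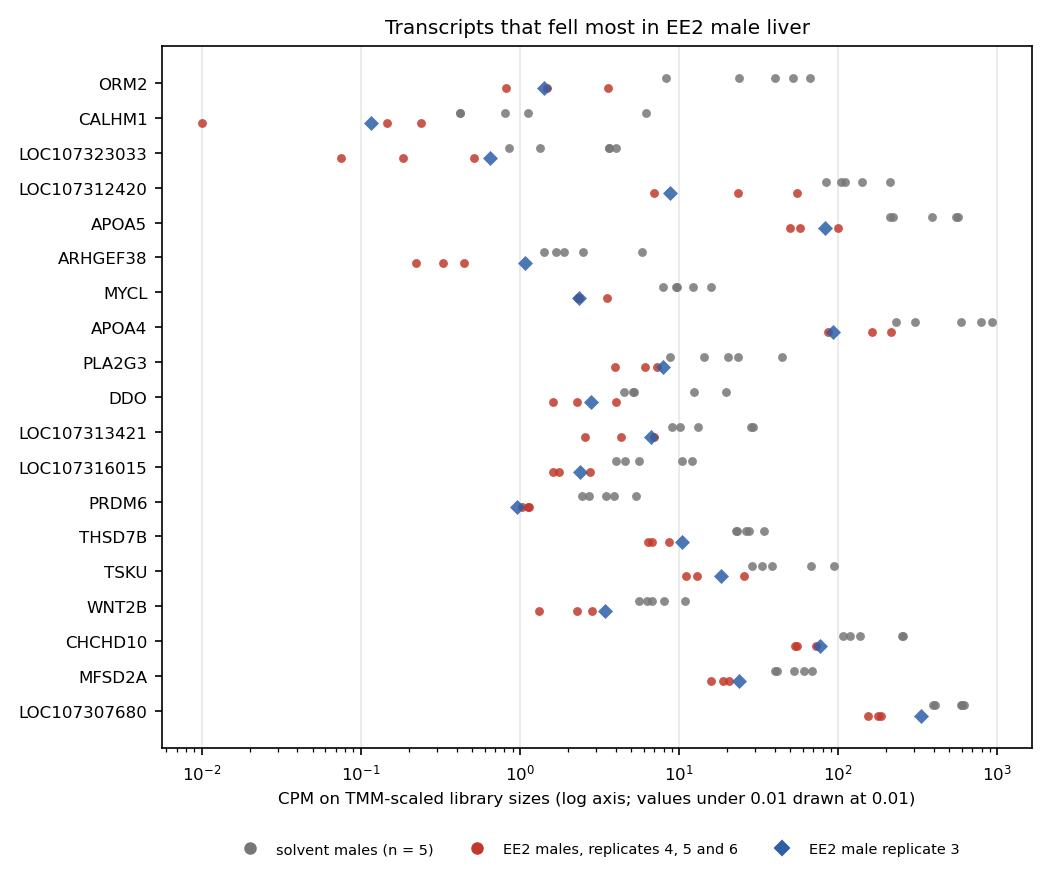
Genes with the largest falls (14 with a gene name, 5 loci) are shown by CPM in each male library on a log axis, with the same colours as for the rises. No EE2 male overlaps the solvent males in these genes, by the rule that chose them, and ORM2 and CALHM1 vary widely among solvent males.

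The estrogen receptors themselves did not pass the test. ESR1, the main estrogen receptor of liver, was at 8.15, 4.38, 5.74, 2.27 and 5.6 CPM in solvent males and at 5.61, 8.06, 7.43 and 9.93 CPM in EE2 males (0.57 ± 0.25 (SE), adjusted p = 0.236), with overlapping groups. ESR2 was under 2 CPM in all 9 libraries (0.27 ± 0.42 (SE), adjusted p = 0.811). PGR, the progesterone receptor and a classical estrogen target in oviduct, was at 1.72, 2.66, 3.02, 1.56 and 2.86 against 0.577, 1.31, 1.76 and 1.57 CPM (-0.85 ± 0.35 (SE), adjusted p = 0.207). GPER1, the membrane estrogen receptor, was not among the genes tested. Of 24 tested receptors and coregulators, 2 rose and 2 fell. The coactivator NCOA1 rose from 62.7, 66.1, 65.7, 72.5 and 70.05 to 109, 129, 104 and 118 CPM (0.77 ± 0.07 (SE), adjusted p = 1.87e-06), and the corepressor NCOR1 rose by 0.43 ± 0.09 (SE), adjusted p = 0.00658 on the log2 scale. Those that fell were the orphan receptor ESRRG (-0.52) and the chaperone HSP90AA1 (-0.65), and both calls were lost without EE2 male replicate 4 or 5. Both were also lost without solvent male replicate 8, and that of HSP90AA1 without solvent male replicate 7.

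Of 33 tested hepatocyte transcription factors, 3 rose and 2 fell. CEBPB, a basic leucine zipper factor of liver, was at 76.4, 93.8, 80.3, 85.6 and 60.6 CPM against 156, 213, 173 and 190 CPM (1.21 ± 0.12 (SE), adjusted p = 4.28e-06). NR2F1, an orphan nuclear receptor, was at 68.6, 48.4, 47.2, 54 and 72.9 against 141, 162, 162 and 154 CPM (1.41 ± 0.14 (SE), adjusted p = 2.81e-06). In both, the EE2 males lay well above the solvent males and replicate 3 was the lowest of the EE2 males. GATA6 rose by 0.34, a call lost in 6 of 9 cases. Beside MYCL, CREB3L3, a membrane-bound factor of liver lipid metabolism, fell by 0.67 on the log2 scale and did not pass without EE2 male replicate 5.

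Other metabolic lists gave few calls, beside 2.24% called higher and 1.03% called lower over all genes tested. The list of serine, glycine and amino acid supply had 1 call in 33, GLDC of the glycine cleavage system, at 69.9, 35.4, 57.7, 84.5 and 96.3 CPM against 140.3, 270, 307 and 169 CPM (1.69 ± 0.3 (SE), adjusted p = 0.00252). Among 27 oxidative stress genes, 3 rose, namely catalase (CAT, 0.66), TXNRD1 (1.37) and GCLC (0.34), and 1 remained without EE2 male replicate 5 or solvent male replicate 2. SLC51B, a bile acid transporter subunit, was the 1 call in 15 bile acid genes (1.65 ± 0.37 (SE), adjusted p = 0.0178). DIO2, the deiodinase that activates thyroid hormone, was the 1 call in 12 thyroid genes, at 0.292, 0.121, 0.137, 0.12 and 0.0772 against 1.42, 1.42, 1.14 and 0.853 CPM (2.98 ± 0.55 (SE), adjusted p = 0.00353). Both separated the groups, and SLC51B did not pass without EE2 male replicate 4. Of 18 xenobiotic and heme genes, ALAS1, the first enzyme of heme synthesis, fell from 127, 92.5, 100.2, 129.7 and 154 to 74.7, 63.5, 76.02 and 59.03 CPM, and so did the dioxin receptor AHR (-0.6), which failed in 7 of 9 cases. Of 27 glucose genes, G6PC (-0.77), which releases glucose, and the transporter SLC2A2 (-0.65) fell and the glycogen regulator PPP1R3B rose (0.8), and neither fall passed without EE2 male replicate 4 or 5, nor the rise without replicate 5. The fall of SLC2A2 (edgeR adjusted p = 0.0498) was lost in 7 of 9 cases of leaving out 1 male library. TIMP2 (1.12), the single call on the list of 37 matrix genes, was lost in 3 of 9. GHR (-0.55, edgeR adjusted p = 0.0498), the single call among 23 growth axis genes, was lost in 7 of 9. The cases for both included EE2 male replicate 4. The matrix genes COL4A5 (0.95), COL4A6 (0.9) and MATN3 (2.86), which were not on the matrix list, were also called higher.

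A vitamin carrier and several signalling genes were among the largest rises. TCN2, the blood carrier of vitamin B12, was at 37.7, 33.4, 32.3, 34.1 and 28.1 CPM in solvent males and at 288, 1145, 546 and 564 CPM in EE2 males (4.26 ± 0.3 (SE), adjusted p = 1.9e-08). CORIN, a membrane protease known from heart, went from 0.11, 0.362, 0.996, 0.359 and 0 to 23.99, 22.7, 49.3 and 38.6 CPM (6.48 ± 0.44 (SE), adjusted p = 1.69e-08). NPTXR, a pentraxin receptor known from neurons, went from 0.15 to 0.424 to 26.02, 173, 192 and 133 CPM (8.83 ± 0.61 (SE), adjusted p = 2.28e-08). All 4 EE2 males lay far above the solvent males in these 3 genes, and the rule for naming the largest rises required no overlap. CKMT2, a mitochondrial creatine kinase encoded on Z, was at 2.04, 7.8, 7.87 and 6.76 CPM against 0 to 0.0687 CPM, with close values in replicates 4, 5 and 6. GPR50, a receptor of the melatonin receptor family, was at 5.27, 7.2, 7.65 and 6.18 against 0.183 to 0.634 CPM, and the secretory granule gene SCG2 at 11.9, 5.37, 9.45 and 38.8 against 0.888 to 1.94 CPM. The glutamate receptor gene GRM8 was at 2.11, 1.08, 1.95 and 5.49 against 0 to 0.209 CPM, with a call that was lost in 7 of 9 cases.

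Some lists had no call. No gene of 45 in the cell cycle list passed (edgeR), 16 had an unadjusted p under 0.05, as did 2253 of all 13501 genes tested (16.7%), and the median was -0.26. Without EE2 male replicate 3, 6 cell cycle genes fell. None of 33 respiratory chain subunits passed, and 32 of them had a negative log2 fold change, as did 6927 of all genes tested (51.3%), with a median of -0.21. None of 67 cytosolic ribosomal protein genes passed (median -0.02). None of 18 aminoacyl-tRNA synthetases (median -0.05) and none of 11 gonadal sex determination genes (median -0.06) passed.

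EE2 male replicate 3 lay between the solvent males and the other 3 EE2 males along the female response, more so for rises than for falls. To place each male library without using the male calls, its log2 differences from the solvent males were set against the female effect over 685 genes that changed at least 2-fold in females, a comparison in which 2737 of 13501 genes (20.3%) were called. The slope was between -0.03 and 0.04 in the solvent males, 0.42 in replicate 3, and 0.68, 0.72 and 0.61 in replicates 4, 5 and 6. For the 403 genes higher in females the median difference was 0.35 in replicate 3 against 1.0, 1.21 and 0.85 in the others. In the solvent males it ran from -0.12 to 0.21. For the 282 genes lower in females it was -0.08 in replicate 3, inside the range of -0.12 to 0.1 in the solvent males, against -0.48, -0.73 and -0.49 in the others. The female calls came from the same fit, which estimated the spread over all 20 libraries. Of the 403 genes, 155 lay above all solvent males in replicate 3, and 230 to 289 did so in the other EE2 males. A solvent male set against the other 4 solvent males gave 54 to 139. Of the 282 genes, 65 lay below all solvent males in replicate 3, within the 39 to 73 of the solvent males set against each other, and 137 to 168 did so in the other EE2 males.

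Replicate 3 also lay between the groups over all genes. On the first principal component of the male libraries, which held 33.65% of the variance, the solvent males lay between -35.3 and -20.2, replicate 3 at 9.63 and the other EE2 males between 34.3 and 54.4. As a description of the called genes, which replicate 3 helped to choose, the 302 higher genes took 2.16% to 2.74% of the counts in solvent males, 7.22% in replicate 3 and 12.7% to 13.8% in the others. The shortfall was uneven across genes. The log2 shift of replicate 3 was a median 69.8% of that of the others in the higher genes, but at least 90% in 85 of them and under 25% in 29. In the 139 lower genes the median was 69.4%, with at least 90% in 35 and under 25% in 4. Among the genes named for the largest rises, falls or CPM differences, APOB, LOC107311487, SCG2, GRM8 and ORM2 were nearest the other EE2 males, with shares of 99.98%, 102%, 97.8%, 97.3% and 105%. APOA1, HHIPL2, LOC107307680 and ARHGEF38 of the same set were among the nearest to the solvent males, with 26.4%, 33.2%, 39.6% and 40.7%.

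**Figure D3:**
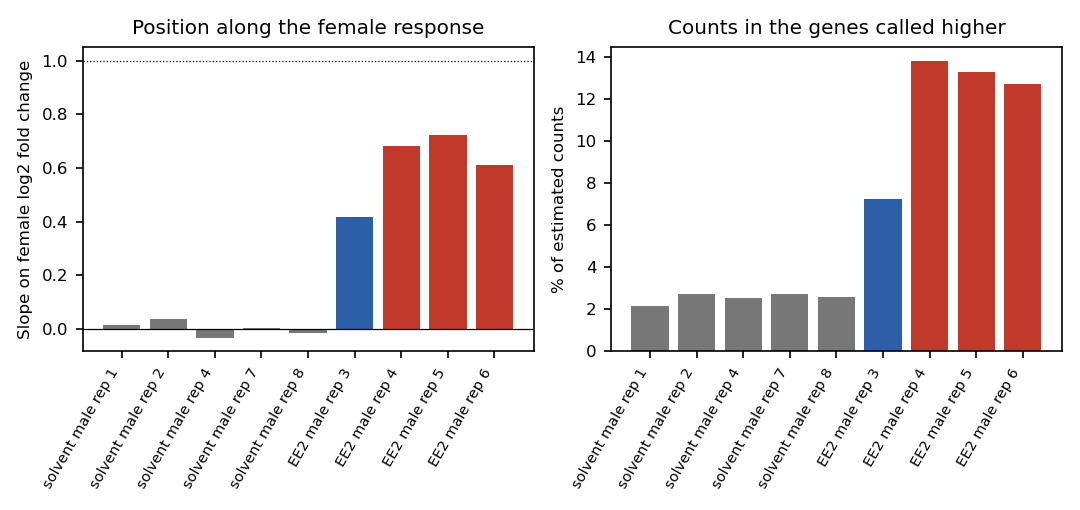
The left panel shows, for each male library, the slope of its log2 differences from the solvent males on the female log2 fold changes over 685 genes, with a dotted line at 1, and the right panel the percentage of its counts in the 302 genes called higher in males. Replicate 3 (blue) stands at 0.42 and 7.22%, between the solvent males (grey) and the other EE2 males (red).

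The lists showed the same unevenness. The median difference of the secretory list from the solvent males was 0.09 in replicate 3 and 0.31 in the mean of the other EE2 males, and that of fatty acid oxidation was -0.01 against -0.36. For fatty acid and triglyceride synthesis it was 0.22 against 0.24. The matrix list went from 0.13 in the others to -0.29 in replicate 3.

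**Figure D4:**
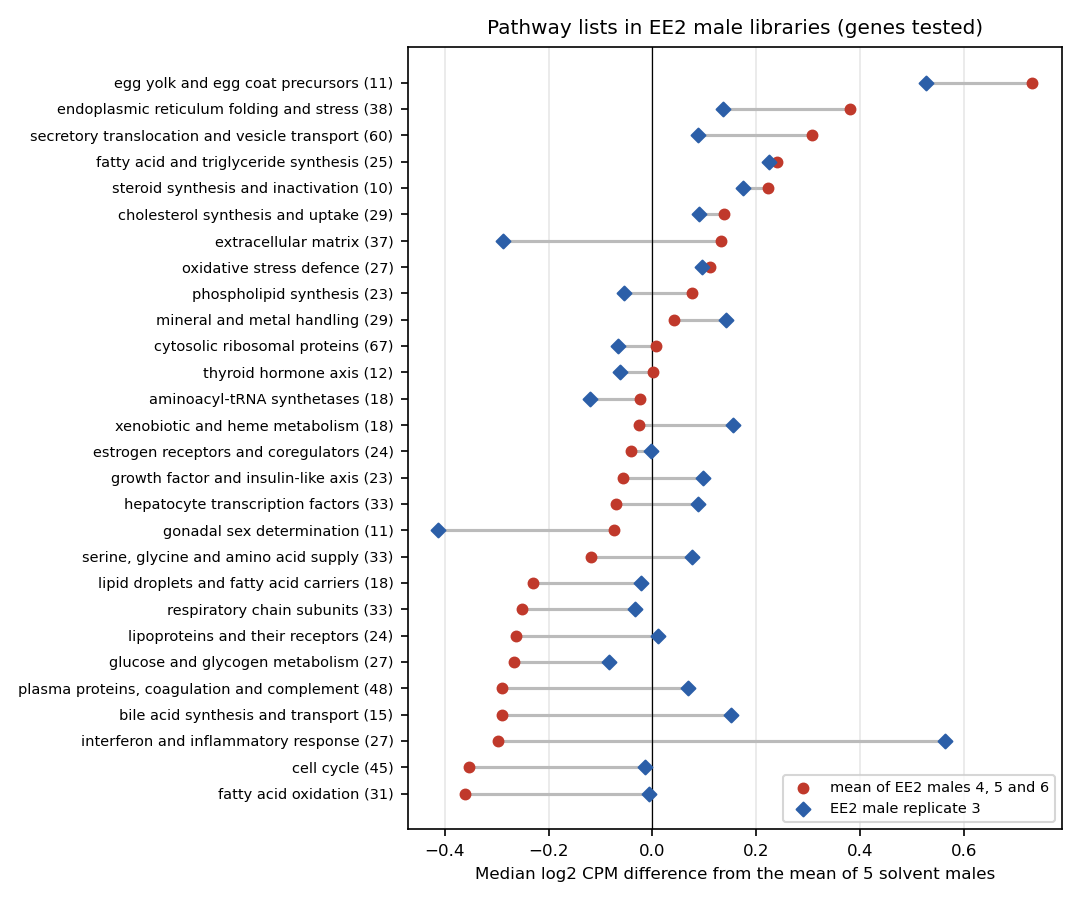
Each row is a pathway list with its number of tested genes, and the horizontal axis is the median log2 CPM difference of its genes from the mean of the 5 solvent males, for EE2 male replicate 3 (blue diamond) and for the mean of EE2 males 4, 5 and 6 (red circle). Replicate 3 lies near 0 where the others are at -0.36 (fatty acid oxidation) and -0.35 (cell cycle), and far to the right for the interferon list (0.56 against -0.30).

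Interferon-response transcripts set 3 male libraries apart. The antiviral gene RSAD2 was at 0.146, 73.5, 0.24, 21.6 and 0.193 CPM in solvent males and 36.6, 0.149, 0.184 and 0.478 CPM in EE2 males. Solvent males 2 and 7 and EE2 male 3 were high. The 27 tested genes of the list summed to 1565, 1084 and 1597 CPM in these 3 libraries and to 517 to 656 CPM in the other 6, and none passed the test between groups (edgeR; 0 at an unadjusted p under 0.05). The 9 macrophage markers summed to 241, 130 and 228 CPM in the same 3 libraries and to 95.2 to 142 CPM in the rest, a range that includes solvent male 7. CTSS was the largest part in solvent male 2 (105.5 CPM, with CD74 at 64.89 CPM) and EE2 male 3 (115.7 CPM). The other markers were mixed. In solvent male 2, C1QA (7.97 CPM) and C1QB (10.38 CPM) were below solvent male 1 (13.12 and 24.08 CPM). There CSF1R (14.7 CPM) and SPI1 (8.36 CPM) were the highest among solvent males. On the second principal component replicate 3 (-44.6) and solvent male replicate 2 (-32.6) lay farthest from the others. Without the 3 libraries 261 genes were higher and 187 lower, 201 and 86 of them shared with the counts above. The part of this difference in the position of replicate 3 was not tested.

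Striated muscle transcripts came with EE2 males 4 and 5. The 12 tested muscle markers summed to 159 CPM in replicate 4 and 430 CPM in replicate 5, against 59.6 to 96.4 CPM in the other 7 male libraries. Among them MYL2 was at 0.231, 9.7, 39.8 and 0.307 CPM in EE2 males and 0.103 to 0.256 in solvent males, TNNT2 at 1.77, 14.8, 58.5 and 0.58 against 1.41 to 2.01, and TTN at 2.11, 7.65, 44.1 and 1.13 against 0.687 to 2.55. The skeletal muscle markers TNNI2 and TNNT3 reached at most 0.769 and 1.15 CPM among EE2 males, both in replicate 3. The troponin marker TNNI1 was at 2.345, 4.85, 21.7 and 0.478 CPM in EE2 males against 0.687 to 2.23 CPM in solvent males. TNNC1, another, was at 12.8, 12.01, 21 and 11.4 against 8.92 to 24.55 CPM. Neither of these passed the test. MYL2, TNNT2 and TTN were called higher, as were the heart muscle gene MYBPC3 (0.384, 3.4, 25.9 and 0.102 CPM in EE2 males), named after its values were seen, and the calcium store genes CASQ2 (0.653, 1.64, 5.37 and 0.102 CPM) and ATP2A2 (76.4, 91.3, 113 and 68.96 CPM). ATP2A2 was at 56.9 to 64.9 CPM in solvent males, below all 4 EE2 males, and was also called higher in females (0.37, edgeR adjusted p = 0.038). Without EE2 males 4 and 5 the log2 fold changes of TNNT2 and TTN were -0.53 and -0.36, and that of MYL2 was 0.42. With only 2 EE2 males left, 95 genes were higher and 15 lower, 93 and 11 of them shared with the full counts, and 3 of the 4 rises on the yolk and egg coat list remained. The summed CPM of the 14 mesenchymal markers was also high in these 2 libraries, at 3642 and 4323 CPM. It was 2217 and 2581 CPM in EE2 males 3 and 6 and 2542 to 3344 CPM in solvent males. The abundant collagens COL1A1 (1059 and 1233 against 546.4 to 835.3 CPM in solvent males), COL1A2 and COL3A1 were above every solvent male in both libraries. RELN was below every solvent male (519.1 and 540.7 against 670 to 1016 CPM). The other markers were mixed, with DES, LHX2 and NGFR inside the solvent range. The part of these transcripts in other results was not tested.

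Among other marker lists, cholangiocyte (6 tested), erythroid (5), endothelial (14), granulocyte and lymphoid (4), kidney (5) and gonadal (2) genes gave no call. LGALS2 (1.25) and SI (3.73), 2 of 5 tested pancreas and gut genes, rose, while CDX2, PDX1 and VIL1 did not pass and were at 0.11 to 1.64, 0.298 to 1.88 and 0.205 to 0.615 CPM in EE2 males, with the highest CDX2 and PDX1 values in replicate 6. The mesothelial gene BNC1 fell by 1.17 on the log2 scale, a change that did not pass in 7 of 9 cases.

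Genes called higher often lay next to each other. In gene order on the NCBI assembly Coturnix japonica 2.1, 34 pairs of adjacent coding genes were both called higher and 10 pairs both lower. Of 284 higher genes with a tested neighbour, 57 (20.1%) had a neighbour called higher, while 3.90% of all tested genes had one. For lower genes it was 17 of 137 (12.4%) against 1.94%. These shares are a description and were not tested.

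Some runs, picked after their values were seen, held a strongly rising gene with weaker ones beside it, and others held genes of like size, such as COL4A5 (a log2 fold change of 0.95) and COL4A6 (0.9) on chromosome 4, or LOC107315856 (4.12), LOC107315857 (4.11) and LOC107315860 (5.32) on chromosome 6. On chromosome 1, CBX6 (0.82), NPTXR (8.83), DNAL4 (1.06), LOC107314278 (13.92) and SUN2 (1.5) followed one another. On chromosome 8, SSX2IP (1.9) lay beside LOC107317565 and LOC107317352, and SPATA1 (7.05) beside GNG5 (0.74) and RPF1 (0.57). On chromosome 11, DRC7, a dynein regulatory gene, lay beside ZPD and went from 2.59 to 5.34 to 25.1, 44.6, 21.3 and 14.9 CPM. On chromosome 15, SLC35E4 (3.4) lay between TCN2 and DUSP18, and on chromosome 3 SMPDL3A (0.98) lay between CLVS2 (3.76) and FABP7. DUSP18 had 1 count over the solvent males and 85 over the EE2 males, with 0 CPM in replicate 3. Among lower genes, ZPR1 (-1.24) preceded APOA5, APOA4 and APOA1 on chromosome 24, and the fibrinogen genes were adjacent on chromosome 4.

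The male response largely had the direction seen in females. Of the 302 higher genes, 281 were also higher in females and 217 of these were called there, and of the 139 lower genes 131 were lower and 94 called. Over all 13501 genes tested, 2737 (20.3%) were called in females in either direction, and the median female log2 fold change was 0.01. No gene was called in opposite directions. The female effect minus the male effect was called for 143 of 13501 genes (1.06%), 21 of them called in males. Without EE2 male replicate 3 this count was 24 over all genes and 8 of the 21. Leaving out single male libraries kept between 3 of the 21 (without EE2 male replicate 4) and 18 (without replicate 5), and LOC107319873 and SCG2 were called in all 9 cases. With limma voom 12 of the 21 remained, and neither LOC107319873 (adjusted p = 0.111) nor SCG2 (adjusted p = 0.0679) was among them. Without the 3 libraries with high interferon-response transcripts 3 of the 21 remained, LOC107319873 among them but not SCG2.

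For some of the leading genes the mean levels of the sexes were close in EE2 embryos and apart in solvent embryos. LOC107319873 reached 17560 ± 9057 CPM (SD, n = 4) in EE2 males and 19200 ± 3544 CPM (SD, n = 6) in EE2 females, but was at 0.279 ± 0.139 CPM (SD, n = 5) in solvent males and 11.3 ± 6.72 CPM (SD, n = 5) in solvent females. Its female effect minus male effect was -5.22 ± 0.73 (SE), adjusted p = 0.0122 on the log2 scale. ZP1 was at 183 ± 53.02 and 267 ± 75.5 CPM in EE2 males and females, and at 6.5 ± 5.66 and 89.9 ± 26.6 CPM in the solvent embryos of each sex. ZPD showed the same arrangement, with 489 ± 317 and 538 ± 188 CPM after EE2 and 0.0505 ± 0.0711 and 2.25 ± 1.66 CPM after solvent. Other loci did not show it. LOC107317574 was at 0.583 ± 0.102 CPM in solvent males and 0.362 ± 0.0897 CPM in solvent females, and at 1499 ± 2108 and 3440 ± 3429 CPM after EE2. LOC107317492 was at 0.133 ± 0.0707 and 0.214 ± 0.154 CPM after solvent, and LOC107310248 at 78.2 ± 44.2 and 157 ± 164 CPM after EE2. The difference between the sexes within solvent or within EE2 embryos was not tested here.

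The female effect minus the male effect was also called for SCG2, DIO2, LPIN1 and ALAS1. SCG2 went from 1.21 ± 0.43 to 16.4 ± 15.2 CPM in males and from 1.37 ± 0.552 to 0.668 ± 0.551 CPM in females, a difference of -4.78 ± 0.75 (SE), adjusted p = 0.0176. DIO2 went from 0.149 ± 0.0829 to 1.21 ± 0.271 CPM in males, and in females from 0.76 ± 0.496 to 0.565 ± 0.376 CPM. Its mean level was thus also apart between the sexes in solvent embryos, and low in every group. LPIN1 rose less in males (1.26) than in females (3.12) on the log2 scale. ALAS1 fell in males (-0.82), with a log2 fold change of 0.4 in females. The difference of DIO2 was lost without EE2 male replicate 3 or 4 and without solvent male replicate 2 or 7. That of LPIN1 remained without EE2 male replicate 5 or solvent male replicate 7, but not without any other male library. Of the cases of leaving out 1 male library, the ALAS1 difference was lost only without EE2 male replicate 4. It was also lost without the 3 libraries with high interferon-response transcripts (edgeR adjusted p = 0.0814).

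**Figure D5:**
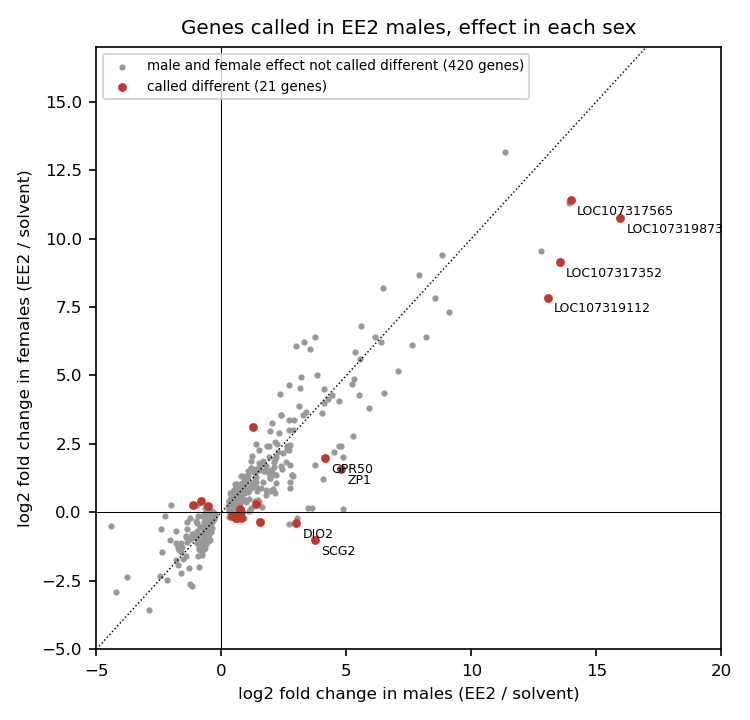
Each point is 1 of the 441 genes called in males, with its log2 fold change in males on the horizontal and in females on the vertical axis and a dotted line of equal effect. The 21 genes whose effects were called different are red, and those that differ by over 2 are named, with LOC107319873, LOC107317352 and ZPD (LOC107319112) below the line and SCG2 and DIO2 below 0 in females.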

How the data were processed

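RNA sequencing libraries of the left liver lobe came from 20 embryos, 9 of them male. The authors deposited estimated counts per coding sequence, which the submitters' processing notes credit to kallisto. Its version, like the transcript set and the build, is not given in the sources used here. The tool divides a read that fits several sequences among them. The 40934 deposited coding sequences were summed to 16066 genes and rounded. All gene identifiers matched a table of the NCBI assembly Coturnix japonica 2.1, used for names and gene order. In it, 3043 genes carry only a locus symbol. The filter of edgeR (minimum count 10, total 15) kept 13501 genes and 99.98% of the counts.

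Differences were tested with edgeR 4.0.16 in R 4.3.3 (TMM scaling, robust quasi-likelihood, two-sided, Benjamini-Hochberg adjusted p under 0.05) in 1 fit over all 20 libraries with a mean per group. CPM used TMM-scaled library sizes, and log2 CPM a prior count of 2. The male libraries held 26776988 to 32119466 estimated counts, and the biological coefficient of variation was 0.245. No 2 libraries were identical. Nothing in the labels says whether embryos shared parents, so each p-value reflects only the spread among the embryos sampled. The fit was tested on simulated counts. Alternatives used DESeq2 1.42.0, limma 3.58.1 voom, other scalings and filters, the male libraries alone, a test against a 1.5-fold change, and leaving out libraries.

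Members and gene lists were chosen with earlier results of these data known. Named genes were the 15 largest rises and falls with a name and the 8 rises and 5 falls of unnamed loci, among called genes with a mean of at least 1 CPM and all 4 EE2 males beyond the solvent range. Added to these were the 10 called genes with the largest CPM difference, called list members, ESR1, ESR2, GPER1 and PGR, the 10 called genes with the smallest p for the difference between the sexes, and the 5 genes in which replicate 3 lay nearest each side. A few genes that the rule covers are not reported here, though counts over all genes and over lists include them. No reference sequence was used here.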

Additional observations from a re-analysis of the deposited data

Results flagged for a closer look

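Single libraries stood apart within their group for 13 of 240 combinations examined, about the 1 in 20 that chance flags, so the values below are given as a description. Among solvent males, CALHM1 (6.18 CPM) and G6PC (919 CPM) were high in replicate 8, ARHGEF38 (5.83 CPM) in replicate 7, and DIO2 (0.292 CPM) in replicate 1. In solvent male replicate 4, LOC107310248 was at 0.0343 CPM, which is 1 estimated count, with 0 in the other 4, and TTN was low at 0.687 CPM. Among EE2 males, replicate 3 was low for ELOVL5 (18.6 CPM) and SEC24D (66.9 CPM), replicate 4 was high for MYCL (3.51 CPM) and LGALS2 (18.9 CPM), replicate 6 was high for OSTC (104 CPM), and replicate 5 was high for TTN (44.1 CPM) and low for ZDHHC20 (46.9 CPM).

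The female effect minus the male effect, tested by the interaction term of edgeR, was called for 17 named genes. The difference in log2 fold change was negative for the egg coat genes ZPD (LOC107319112, -5.2) and ZP1 (-3.23), for LOC107319873 (-5.22), LOC107317352 (-4.41), LOC107317565 (-2.59) and LOC107311487 (-0.6), and for SCG2 (-4.78), DIO2 (-3.38), GPR50 (-2.18), DACT2 (-1.08), PPP1R3B (-1), ZDHHC20 (-0.824), ARHGAP24 (-0.783) and CAT (-0.767). It was positive for LPIN1 (1.86), ALAS1 (1.22) and OAF (0.789). Both groups' effects stand in opposite directions for SCG2, DIO2, ALAS1, OAF, ARHGAP24, ZDHHC20, PPP1R3B and CAT, where the female effect was not called. Leaving out single male libraries ended most of these calls, as given above.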

How the results depend on the processing

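Direction held for nearly all named genes, and counts of calls did not. With the male libraries alone, 145 genes were higher and 50 lower. The DESeq2 Wald test gave 498 and 275, among them all 302 and 139 genes called by edgeR, and a test against a 1.5-fold change gave 88 and 11. With limma voom 25 of the 114 named calls were lost, among them ELOVL2, CKMT2, HHIPL2, LOC107310248 and ORM2. Leaving out 1 male library gave 181 to 390 higher and 53 to 257 lower genes, lowest without EE2 male replicate 5 and highest without replicate 3. The 143 differences between the sexes became 24 without replicate 3 and 455 with DESeq2. In alternatives chosen after seeing the data, leaving out EE2 males 4 and 5 gave 95 and 15, and the log2 fold changes of TNNT2, TTN and ESR2, none of which passed, turned to -0.53, -0.36 and -0.23. The log2 fold change of ESR2, never called, ranged from -0.052 without EE2 male replicate 5 to 0.49 without replicate 3. Fewer libraries entered the fits that left libraries out, and why counts and fold changes differed between fits was not tested. Of 114 named calls, 30 passed under every alternative other than the 1.5-fold test, in which single genes were not compared. Scaling and filter alternatives gave 298 to 325 higher and 135 to 138 lower genes. Depth limits genes under 1 CPM. No paired analysis was possible because the labels give no pairing between solvent and EE2 embryos.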

Other observations

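Beyond the lists, further single genes passed the test in males. They were chosen here after their values were seen, and related genes that did not pass were not counted. The retinoic acid receptor RARA was at 36.98, 35.7, 33.1, 30.3 and 31.6 CPM in solvent males and 75.3, 102, 86.1 and 85.6 CPM in EE2 males (1.38 ± 0.11 (SE), adjusted p = 5.37e-08), while ALDH1A2, which makes retinoic acid, and DHRS3, which reduces retinal, fell (-1.03 and -0.8). GREB1L, a relative of the estrogen target GREB1, rose (0.69 ± 0.09 (SE), adjusted p = 4.87e-05). The Golgi and vesicle genes YKT6 (0.4), STX5 (0.51), GOSR2 (0.53), GOLGB1 (0.67) and YIPF5 (0.64) rose, and so did the sugar nucleotide genes GMPPA (0.35), GMPPB (0.61) and PGM3 (0.53). MID1IP1, a regulator of fatty acid synthesis, rose from 24.9 to 54.3 to 118, 227, 168 and 108 CPM (1.88 ± 0.26 (SE), adjusted p = 0.00021).

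The cytosolic chaperones HSPA8 (-0.54 ± 0.14 (SE), adjusted p = 0.0363) and CCT8 (-0.38 ± 0.1 (SE), adjusted p = 0.0328) fell beside HSP90AA1, with log2 fold changes of 0.01 and 0.03 in females. The differences between the sexes were not called for these genes. The vitamin transporter SLC5A6 was at 165, 192, 189, 168 and 253 CPM against 95.4, 73.5, 72.6 and 128 CPM (-1.07 ± 0.16 (SE), adjusted p = 0.000516), and the folate enzyme FPGS fell by 0.96 on the log2 scale. The growth arrest gene GADD45G was at 1.02, 1.87, 0.652, 1.08 and 0.618 CPM in solvent males and 2.88, 17.4, 10.4 and 6.11 CPM in EE2 males (3.11 ± 0.47 (SE), adjusted p = 0.000456).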
